A study of Mus musculus with 10 samples.

Results

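Cxcl9, Cxcl10 and Cxcr3 are 3 of the 25814 genes in the deposited gene tables, and they were picked by name in the table of each library. They were measured by RNA sequencing in 10 libraries, 2 for each of 5 groups. Keratinocytes of wild type C57/B6 mice were either cultured alone (keratinocytes alone) or together with activated CD8+ T cells (co-cultured keratinocytes). The paper used adult tail skin and newborn mice as sources and does not state which was sequenced. Splenic CD8+ T cells were taken after 1 d of activation by αCD3/CD28 Abs (activated T cells), after 1 d of activation and 1 further d in medium (T cells in mixed medium), or after 1 d of activation and 1 further d with keratinocytes (co-cultured T cells). The labels call the medium keratinocyte medium, and the paper describes it as SFM mixed with X-vivo medium. The paper gives this mix for all co-cultures and does not state that keratinocytes alone received it. If they did not, T cells and medium changed together in keratinocytes and cannot be told apart. A co-culture of 1 d is given by the paper and the T-cell labels, whereas the design text gives 1 h. T cells were purified with CD8 microbeads and washed off the keratinocytes, and no sort of either partner after co-culture is described. The replicate numbers of the T cells in mixed medium and of the co-cultured T cells are names given in accession order. The libraries stem from parallel experiments, and since it is not stated that separate animals were used, p-values measure the spread between libraries, which may be partly technical.

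CXCL9 and CXCL10 are small secreted proteins of the CXC chemokine family that attract activated T cells. Both bind CXCR3, a G protein-coupled receptor on activated CD8+ T cells, type 1 helper cells and NK cells. Many cell types, epidermal keratinocytes among them, make both chemokines upon exposure to interferons, and CXCL9 is known to depend more on IFN-γ than CXCL10. In inflamed skin this axis guides T cells into the epidermis.

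In GRCm38, the mouse genome build used for the tables, Cxcl9 (ENSMUSG00000029417) lies at chr5:92321347-92328079 on the minus strand and has 4 exons. Cxcl10 (ENSMUSG00000034855) lies at chr5:92346638-92348889, also on the minus strand. Cxcr3 (ENSMUSG00000050232) is on another chromosome, at chrX:101731535-101734269 on the minus strand, with 2 exons. All 3 are annotated as protein coding. Cxcl10 lies wholly within the span of Art3 (chr5:92331827-92414628), a gene on the plus strand, and so does Cxcl11, which the tables class as a polymorphic pseudogene. Cxcl9 lies outside Art3.

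The 250 bases upstream of the transcription starts of both chemokine genes are shown because both transcripts were higher in both libraries of co-cultured keratinocytes than in keratinocytes alone. They come from the RefSeq promoter table (GRCm38.p6), in which all 3 members were found. Capitals mark matches to the core of the interferon-stimulated response element (GAAANNGAA), a part of the κB consensus (GGGNNNTTC) and the TATA box (TATAAA), each searched on both strands.
Cxcl9, chr5:92328080-92328329, minus strand: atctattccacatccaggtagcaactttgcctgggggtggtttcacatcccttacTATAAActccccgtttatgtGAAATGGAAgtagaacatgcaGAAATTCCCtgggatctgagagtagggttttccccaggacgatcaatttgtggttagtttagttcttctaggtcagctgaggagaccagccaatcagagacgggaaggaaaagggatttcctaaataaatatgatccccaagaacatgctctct
Cxcl10, chr5:92348890-92349139, minus strand: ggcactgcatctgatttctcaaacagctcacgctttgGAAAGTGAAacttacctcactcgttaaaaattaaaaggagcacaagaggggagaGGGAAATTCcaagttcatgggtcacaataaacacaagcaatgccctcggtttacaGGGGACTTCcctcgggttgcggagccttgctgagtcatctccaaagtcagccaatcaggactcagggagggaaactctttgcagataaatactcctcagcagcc

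Both sequences held 1 match to the response element core, at positions -175 to -167 in Cxcl9 and -213 to -205 in Cxcl10, where -1 is the base next to the start. The κB letters matched at 1 place in Cxcl9 (-154 to -146) and at 2 places in Cxcl10 (-159 to -151 and -104 to -96). The TATA letters were found in Cxcl9 alone, at -195 to -190. Neither sequence held the letters of the gamma-activated site (TTCNNNGAA) or of the T-box motif (GGTGTGA). In the same window of Cxcr3 there was a single match, to the κB letters. Of all 32851 promoters in the table, 7.13% held the response element core, 11.8% the κB letters, 12.4% the TATA letters, 7.02% the letters of the gamma-activated site and 3.33% those of the T-box motif. None of the matches overlapped another. A match describes the letters and not the binding of a factor, and a missing match concerns this window only.

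Library depth ranged from 12864931 to 18019609 exon reads (median 14830028). Intervals and floors below cover counting error only, since these reads carry no molecular identifiers. Levels are given as RPKM, in which the authors scaled exon reads to exon length and library size, so that they can be compared between genes. Keratinocyte markers summed to 19275 to 23192 RPKM in the 4 keratinocyte libraries and T-cell markers to 1265 to 2263 RPKM in the 6 T-cell libraries (11 and 10 genes). Markers of the other cell type were found as well, and their source was not tested. T-cell markers summed to 128 and 502 RPKM in keratinocytes alone, to which no T cells had been added, and keratinocyte markers to 122 and 204 RPKM in co-cultured T cells. Cd4 stood at 16.8 to 102 RPKM and Cd8a at 110 to 334 RPKM in the libraries of CD8-selected T cells.

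Cxcl9 was the member with the largest difference between groups. It was nearly undetectable in keratinocytes alone, where 2 and 4 exon reads were counted (0.0365 and 0.0813 RPKM, against 0.0547 and 0.0610 RPKM for 3 reads in these libraries). In co-cultured keratinocytes 7687 and 2977 exon reads were counted, or 175 and 62.5 RPKM (mean 119 ± 79.6, SD, n = 2). Hence, both libraries of co-cultured keratinocytes were far above all other libraries, although they differed 2.80-fold from each other. Among all genes ranked by mean RPKM, Cxcl9 held rank 13646 in keratinocytes alone and rank 551 upon co-culture. T cells held little of it, with 2.37 and 2.19 RPKM in activated T cells, 0.964 and 0.441 in mixed medium, and 1.27 and 0.856 upon co-culture. The T-cell groups in mixed medium and co-culture overlapped.

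Cxcl10 was found at a lower level than Cxcl9 in co-cultured keratinocytes and at a higher level in every other group. Keratinocytes alone had 0.451 and 2.24 RPKM, from 13 and 58 exon reads. Upon co-culture both libraries were at nearly the same level, 10.5 and 12.7 RPKM (mean 11.6 ± 1.53, SD, n = 2), from 243 and 318 exon reads. Activated T cells followed with 5.60 and 8.63 RPKM, T cells in mixed medium with 4.51 and 5.15, and co-cultured T cells with 2.98 in both libraries. The range over all libraries was much smaller than for Cxcl9, from 0.451 to 12.7 RPKM. No groups overlapped in RPKM, which rests on total exon reads. On unique exon reads, T cells in mixed medium stood above activated T cells, as given below. In single pairs of groups given below, 13.1 to 33.9% of genes tested were apart in a given direction.

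Cxcr3 had another distribution and was most abundant in T cells. T cells in mixed medium stood at 146 and 157 RPKM (mean 151 ± 7.47, SD, n = 2) and co-cultured T cells at 130 and 112 RPKM. These groups were close to each other and did not overlap. Activated T cells were lower and far apart, at 23.5 and 86.9 RPKM. In keratinocytes alone 9.86 and 39.6 RPKM were measured, and in co-cultured keratinocytes 14.8 and 70.4 RPKM, so that the keratinocyte groups overlapped. In the 3 groups whose replicate numbers come from the labels, the second library had 3.69 to 4.75 times the level of the first.

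**Figure D1:**
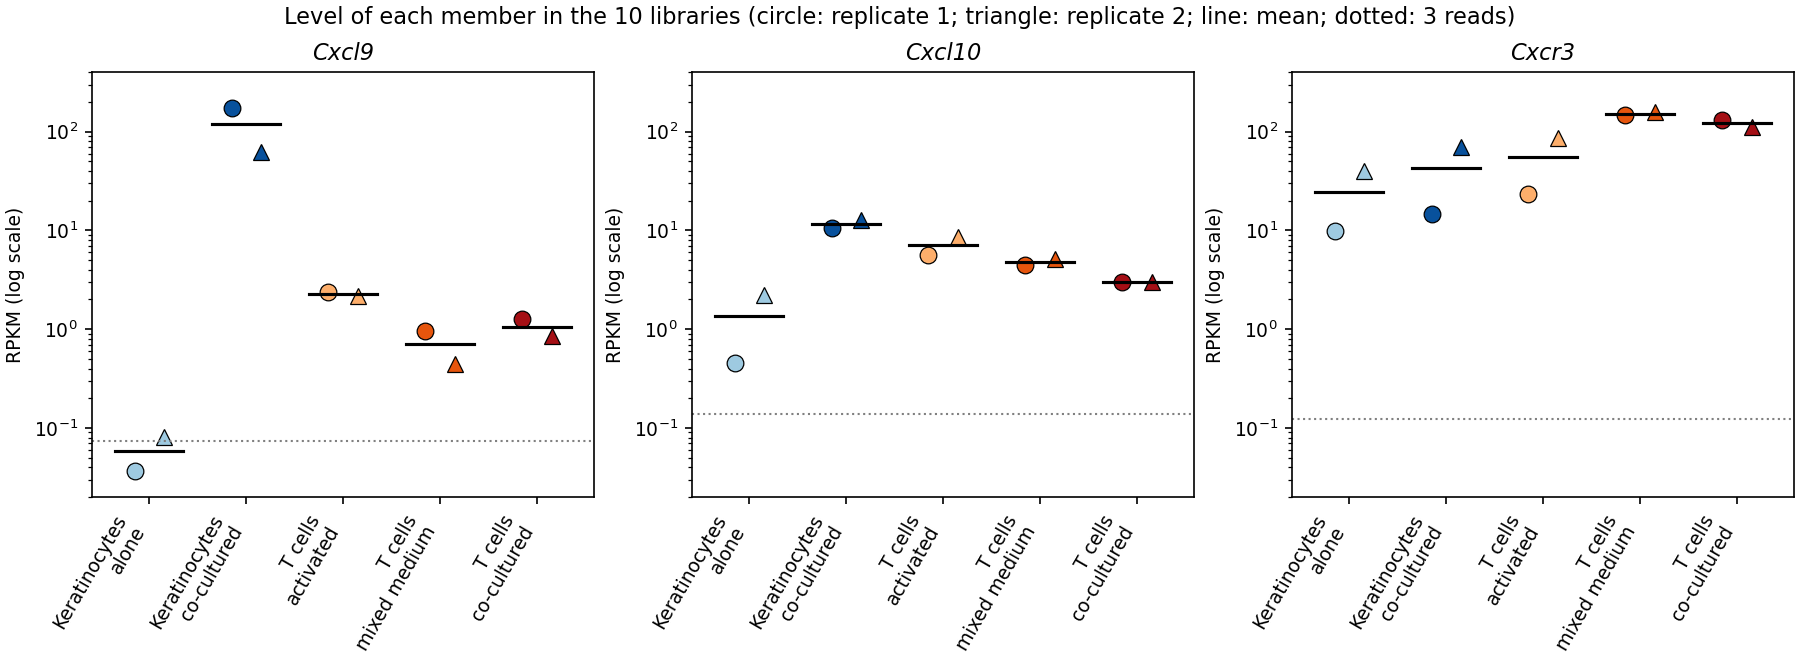
Level in RPKM (log axis) of Cxcl9, Cxcl10 and Cxcr3 in the 10 libraries, with circles for replicate 1, triangles for replicate 2, a line for the mean of each group (n = 2) and a dotted line at the highest value that 3 reads take in any library. Cxcl9 reaches 175 and 62.5 RPKM in co-cultured keratinocytes and stays at or under 2.37 RPKM elsewhere, Cxcl10 spans 0.451 to 12.7 RPKM, and Cxcr3 is highest in the T cells in mixed medium and in co-culture.

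The order of the 5 groups was tested between neighbours in a fit of all 10 libraries with edgeR's quasi-likelihood test, with p-values adjusted after Benjamini and Hochberg over 13394 genes. A gene is said to be called at an adjusted p under 0.05. For Cxcl9, co-cultured keratinocytes exceeded activated T cells by 5.85 ± 0.57 on the log2 scale (SE, adjusted p = 3.5e-04). In this pair 25.6% of all genes were called. T cells in mixed medium exceeded keratinocytes alone by 3.55 ± 0.66 (adjusted p = 0.00409, 35.2% of genes called). The 3 T-cell groups in between did not differ beyond their spread, with adjusted p = 0.305 between activated and co-cultured T cells (9.35% of genes called) and 1.0 between co-culture and mixed medium (0.620% called). On exon reads, the T cells thus lay between both keratinocyte groups and were separated from each.

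None of the neighbours in the order of Cxcl10 levels was called. Co-cultured keratinocytes and activated T cells differed by 0.89 ± 0.68 (adjusted p = 0.373), and activated T cells and those in mixed medium by 0.36 ± 0.68 (adjusted p = 0.843, 5.45% of genes called). The adjusted p was 1.0 for mixed medium against co-cultured T cells and 0.191 for co-cultured T cells against keratinocytes alone (35.4% of genes called). The order of Cxcr3 levels, from T cells in mixed medium through co-cultured and activated T cells to co-cultured keratinocytes and keratinocytes alone, held no called neighbours either (adjusted p = 0.381 to 1.0). In the last of these pairs, 0.0299% of all genes were called.

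Upon co-culture, Cxcl9 and Cxcl10 were higher in both libraries of the keratinocytes than in both libraries of keratinocytes alone, as were 19.8% of the 12515 genes tested. In a fit of these 4 libraries the log2 fold change of Cxcl9 was 10.97 ± 0.88 (adjusted p = 0.434) and that of Cxcl10 3.17 ± 0.86 (adjusted p = 0.658). No member was called, and 0% of all genes were. At an unadjusted p under 0.05 edgeR gave 901 genes, Cxcl9 and Cxcl10 among them, and DESeq2 called 177 genes. With DESeq2 the adjusted p was 2.6e-35 for Cxcl9 and 0.0103 for Cxcl10. Cxcl9 was also called by edgeR without the filter on low counts (log2 fold change 10.97, adjusted p = 0.0166) and with all 10 libraries in the fit (10.93, adjusted p = 0.00213). For a single value in groups of 2, the smallest two-sided p of the exact permutation test is 0.333.

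By read counts alone, the share of Cxcl9 among exon reads was 2034-fold higher in co-cultured keratinocytes (95% interval 934 to 5543, exact, from 10664 against 6 reads), and that of Cxcl10 9.04-fold higher (7.05 to 11.7, from 561 against 71 reads). These intervals do not include the spread between libraries. Cxcr3 showed no such separation. Its log2 fold change in keratinocytes was 0.88 ± 1.01 (adjusted p = 0.766), and it turned to -0.76 when the second library of co-cultured keratinocytes was left out. Leaving out the first library of co-cultured keratinocytes brought 1164 genes past the threshold in place of 0, Cxcl9 (adjusted p = 5.2e-04) and Cxcl10 (adjusted p = 0.0431) among them. Without the second library of this group 21 genes passed, with Cxcl9 (adjusted p = 0.00108) and without Cxcl10. With either library of keratinocytes alone left out, Cxcl9 was not called (adjusted p = 0.632 and 1.0).

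Whether the change upon co-culture differed between both partners was tested in a fit of 8 libraries, in which the change from T cells in mixed medium to co-cultured T cells was subtracted from the change in keratinocytes. The T cells were compared in the same medium, which is not stated for the keratinocytes. If the medium of the keratinocytes changed too, its effect and that of T cells cannot be told apart. For Cxcl9 the changes differed by 10.28 ± 0.93 on the log2 scale (adjusted p = 0.00730). It was 1 of 7 genes with a larger change in keratinocytes among 13202 tested, and 0.576% of all genes were called in either direction. When each library was left out in turn, the difference of Cxcl9 stayed between 9.51 and 10.95 with adjusted p of 0.00522 to 0.0488. On the scale of limma with log2(RPKM + 1) it was 6.35 (adjusted p = 0.0117). For Cxcl10 the difference was 3.81 ± 1.03 (adjusted p = 0.307, or 0.0250 with DESeq2). It was 5.48 ± 1.21 on unique exon reads (adjusted p = 0.159), and 3.07 to 5.43 with a library left out. For Cxcr3 it was 1.18 ± 1.19 (adjusted p = 0.940).

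**Figure D2:**
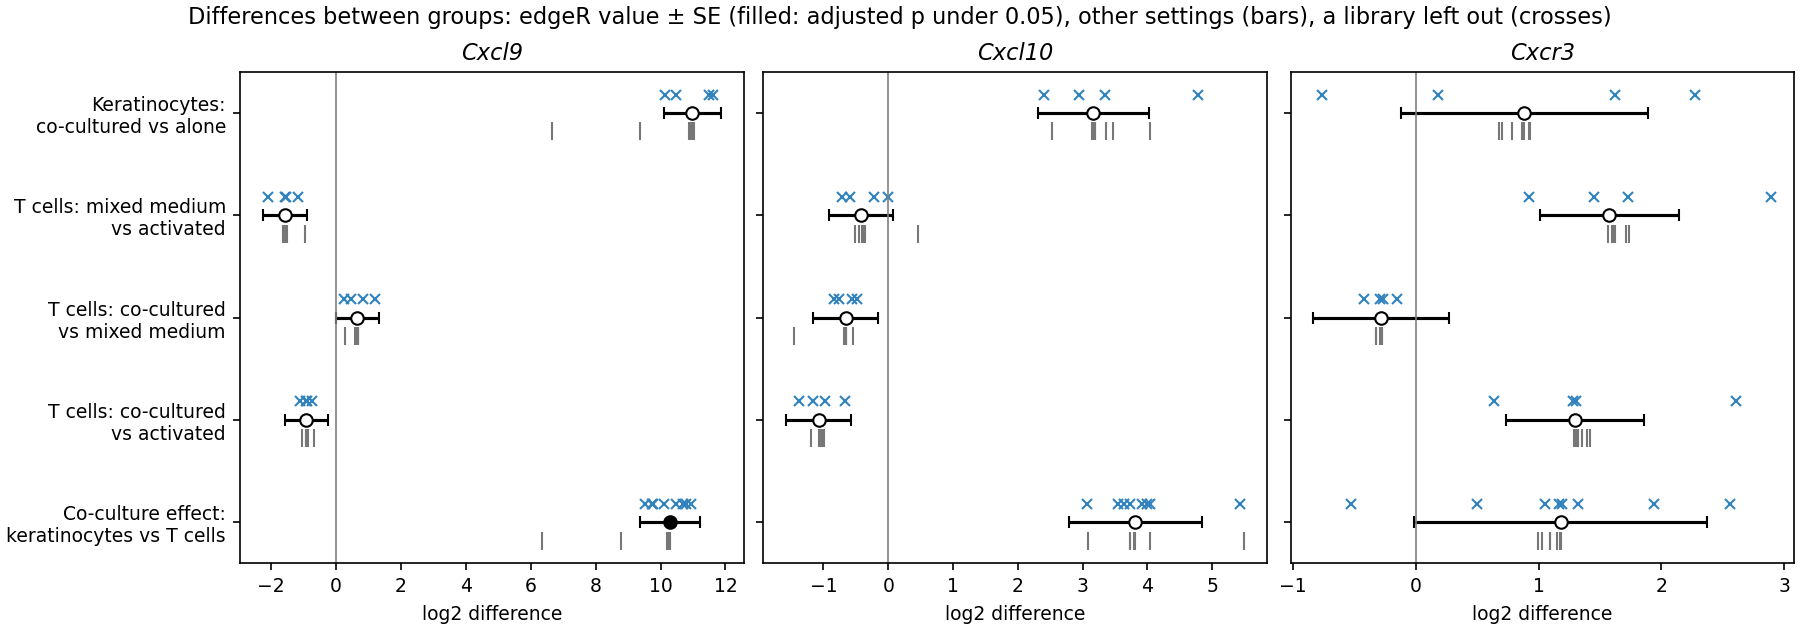
Log2 difference of Cxcl9, Cxcl10 and Cxcr3 (x axes, with a scale of their own in each panel) in 5 comparisons. Circles with bars give the edgeR value ± SE, filled where the adjusted p is under 0.05, short grey bars the other settings, and crosses the values with a library left out. Cxcl9 in the difference between both co-culture effects, at 10.28, is the single filled circle.

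In T cells, all 3 members differed between mixed medium and activation without overlap of the libraries, and none was called. Cxcl9 and Cxcl10 were lower in both libraries in mixed medium, as were 32.5% of 11863 genes (Cxcl10 by total exon reads but not by unique ones, as given below), and Cxcr3 was higher in both, as were 22.1% of genes. The fit of all 6 T-cell libraries gave a log2 fold change of -1.57 ± 0.67 for Cxcl9 (adjusted p = 0.195), -0.42 ± 0.50 for Cxcl10 (adjusted p = 0.667) and 1.57 ± 0.57 for Cxcr3 (adjusted p = 0.132). Here 6.54% of all genes were called. For Cxcr3 the call depended on the setting, since the adjusted p was 0.0305 with DESeq2 and 0.00109 without the filter on low counts. It also depended on the second library of activated T cells, which had the highest Cxcr3 level of this group: without it the log2 fold change was 2.89 (adjusted p = 0.0253).

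No member was called between T cells with and without keratinocytes in the same medium. Co-culture against mixed medium gave a log2 fold change of 0.66 ± 0.67 for Cxcl9, -0.65 ± 0.50 for Cxcl10 and -0.28 ± 0.55 for Cxcr3, each with an adjusted p of 1.0. Of all genes 0.261% were called. For Cxcl10 the value was -1.45 ± 0.90 on unique exon reads, from 23 against 73 reads, also with an adjusted p of 1.0. Cxcl10 and Cxcr3 were lower in both co-cultured libraries, as were 13.1% of genes.

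Between co-cultured and activated T cells the log2 fold change was -0.92 ± 0.66 for Cxcl9 (adjusted p = 0.409), -1.07 ± 0.50 for Cxcl10 (adjusted p = 0.206) and 1.29 ± 0.56 for Cxcr3 (adjusted p = 0.173), where 10.3% of all genes were called. Again, libraries did not overlap, with both chemokines lower (33.9% of genes) and the receptor higher (23.6% of genes) in co-culture. Cxcr3 was called without the filter on low counts (adjusted p = 0.00833), and without the second library of activated T cells (log2 fold change 2.60, adjusted p = 0.0193). Both comparisons with activated T cells share these libraries. The labels give these cells 1 d of activation and no further culture, so that time since activation and medium changed together and cannot be told apart. The paper can also be read as giving them a further day in X-vivo medium, in which case the medium alone would differ.

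The ratio of both chemokines to each other differed between the groups. In keratinocytes alone there was 12.4 and 27.6 times more Cxcl10 than Cxcl9 (ratio of RPKM, which is per exon length), whereas in co-cultured keratinocytes there was 16.6 and 4.93 times more Cxcl9 than Cxcl10. In each of the T-cell libraries Cxcl10 was above Cxcl9, by 2.36 and 3.95 times in activated T cells, 4.69 and 11.7 times in mixed medium and 2.34 and 3.48 times upon co-culture. Therefore, co-cultured keratinocytes were the one group in which Cxcl9 exceeded Cxcl10. The ratios in keratinocytes alone rest on 2 and 4 Cxcl9 reads.

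The reads of the members differed in how they mapped. All exon reads of Cxcl9 and Cxcr3 were counted as unique in each library. For Cxcl10, in contrast, 8.62 to 34.9% of exon reads were unique, and the unique exon reads were equal in number to the unique exon-exon reads, which cross a junction of 2 exons, in all 10 libraries. Thus 262 of its 1338 exon reads were unique. Reads across the first and second junction of the coding region contain stretches such as the following, in which 25 bases of the upstream exon are in lower case and 25 bases of the downstream exon in capitals (GENCODE vM21, GRCm38).
Cxcl10 exons 1 and 2, joined from 92348754 to 92348215 on chr5: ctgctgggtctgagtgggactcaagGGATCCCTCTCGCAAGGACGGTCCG
Cxcl10 exons 2 and 3, joined from 92348089 to 92347894 on chr5: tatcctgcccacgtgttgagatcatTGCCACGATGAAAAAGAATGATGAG

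This pattern was shared by other genes in the same position. Of 296 protein coding genes that lie wholly inside another gene and have at least 100 exon reads in all libraries together, 250 (84.5%) had as many unique exon reads as unique exon-exon reads, against 6 of 8381 genes (0.0716%) that overlap no other gene. In addition, the last 133 bases of Cxcl10 (92346638 to 92346770) overlap an exon of an Art3 transcript on the other strand. Art3 itself had 0 to 95 exon reads per library, and its summed reads in co-cultured keratinocytes (111) were no more than in keratinocytes alone (145). The library kit is not stated to keep the strand, so that reads of both genes cannot be told apart in this stretch.

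On unique exon reads, the direction of Cxcl10 in keratinocytes was the same, with 2 and 5 reads in keratinocytes alone and 43 and 59 upon co-culture (log2 fold change 4.04). In T cells these reads numbered 35 and 22 after activation, 37 and 36 in mixed medium and 12 and 11 upon co-culture. The difference between mixed medium and activation hence turned to 0.46 ± 0.87 (adjusted p = 0.807), and no direction can be given for Cxcl10 in this comparison. Co-cultured T cells remained lowest among the T cells on both kinds of reads.

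Reads on introns were rare for all members. In co-cultured keratinocytes 54 intron reads were counted for Cxcl9, next to 10664 exon reads (0.504% of both, exact 95% interval 0.379 to 0.657%), and none in the other groups. For Cxcl10 there were 2 intron reads in all libraries, and for Cxcr3 68. Over all genes 3.16% of reads on genes fell on introns. Exon-exon reads of Cxcl9 amounted to 1865 in co-cultured keratinocytes and to 0 in keratinocytes alone, at 6 exon reads. In T cells they numbered 31 of 206 exon reads after activation, 13 of 65 in mixed medium and 4 of 91 upon co-culture. The second libraries in mixed medium and upon co-culture held 0, at 22 and 35 exon reads. The cause of the lower share in co-cultured T cells was not tested.

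**Figure D3:**
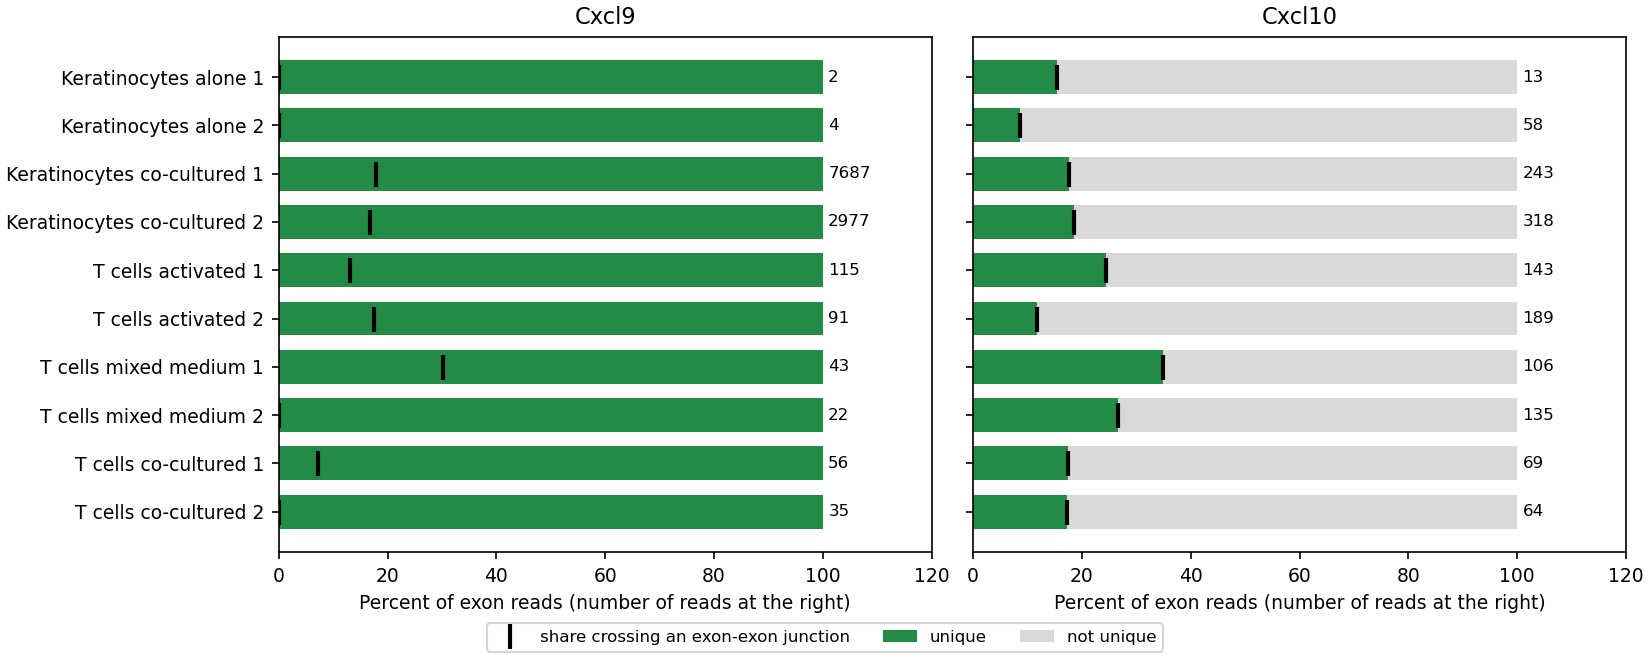
Percent of exon reads of Cxcl9 and Cxcl10 that were counted as unique (green) or not (grey) in each library, with a black mark at the percent that crosses an exon-exon junction and the number of exon reads at the right. All Cxcl9 reads are unique, whereas for Cxcl10 the unique percentage ends at the mark in each of the 10 libraries, between 8.62 and 34.9%.

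Cxcr3 in keratinocyte libraries was set beside the T-cell markers of the same libraries, which were also found where no T cells had been added. In keratinocytes alone Cxcr3 reached 8.13 and 32.7% of its mean in co-cultured T cells, and the summed T-cell markers 6.47 and 25.4% of theirs. In co-cultured keratinocytes these were 12.2 and 58.1% for Cxcr3 and 8.07 and 44.8% for the markers. The receptor and the markers were hence high and low in the same keratinocyte libraries. Cxcr3 amounted to 7.71 to 9.28% of the summed T-cell markers in the 4 keratinocyte libraries, to 6.10 to 6.92% in T cells in mixed medium and in co-culture, and to 1.86 and 4.92% in activated T cells. Fewer cells of a type and less RNA per cell cannot be told apart in such bulk libraries.

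Cd8a was nearly absent from the keratinocyte libraries, whereas Cd4 was not. In keratinocytes alone Cd8a stood at 0.118 and 0.600 RPKM, and upon co-culture at 0.525 and 1.16 RPKM. The levels of Cd4 were 11.4 and 43.5 RPKM alone and 15.0 and 84.5 RPKM upon co-culture. Cxcr3 was 0.834 to 0.990 times as abundant as Cd4 in these 4 libraries. In the second library of activated T cells, with the higher Cxcr3 level, Cd4 was at 102 RPKM and Cd8a at 110 RPKM, and in the first at 16.8 and 176 RPKM. The ratio of Cxcr3 to Cd4 was 0.850 and 1.40 in activated T cells and 1.81 to 2.17 in the other T-cell libraries. The part of such cells in the levels of Cxcr3 was not tested.

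Conversely, Cxcl9 in co-cultured T cells was set beside keratinocyte markers. Their sum in both co-cultured T-cell libraries was 0.902 and 0.540% of its mean in co-cultured keratinocytes, and the Cxcl9 level was 1.07 and 0.721%. For Cxcl10 the level was 25.7% in both. In mixed medium, keratinocyte markers were at 0.0766 and 0.0441% and Cxcl9 at 0.811 and 0.372%. Of 7 keratinocyte markers tested, 3 were called as higher in co-culture than in mixed medium, namely Krt17, Krt14 and Perp, with log2 fold changes of 7.17, 5.68 and 4.35. The part of keratinocyte RNA in the Cxcl9 level of co-cultured T cells was not tested. In the keratinocyte libraries the summed markers differed far less than Cxcl9, with sums of 19275 and 19315 RPKM alone and of 21998 and 23192 RPKM upon co-culture. These sums are carried by Krt14, Krt17, Krt5 and Perp. The other markers were not level, since 4 of 11 had a positive log2 fold change (median -0.55) and the second co-cultured library was low in some, with 12.8 RPKM of Itgb4 against 78.0 to 88.1 RPKM and 16.5 RPKM of Col17a1 against 89.6 to 171 RPKM in the other keratinocyte libraries. The first co-cultured library, without these low values, had the higher Cxcl9 level.

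**Figure D4:**
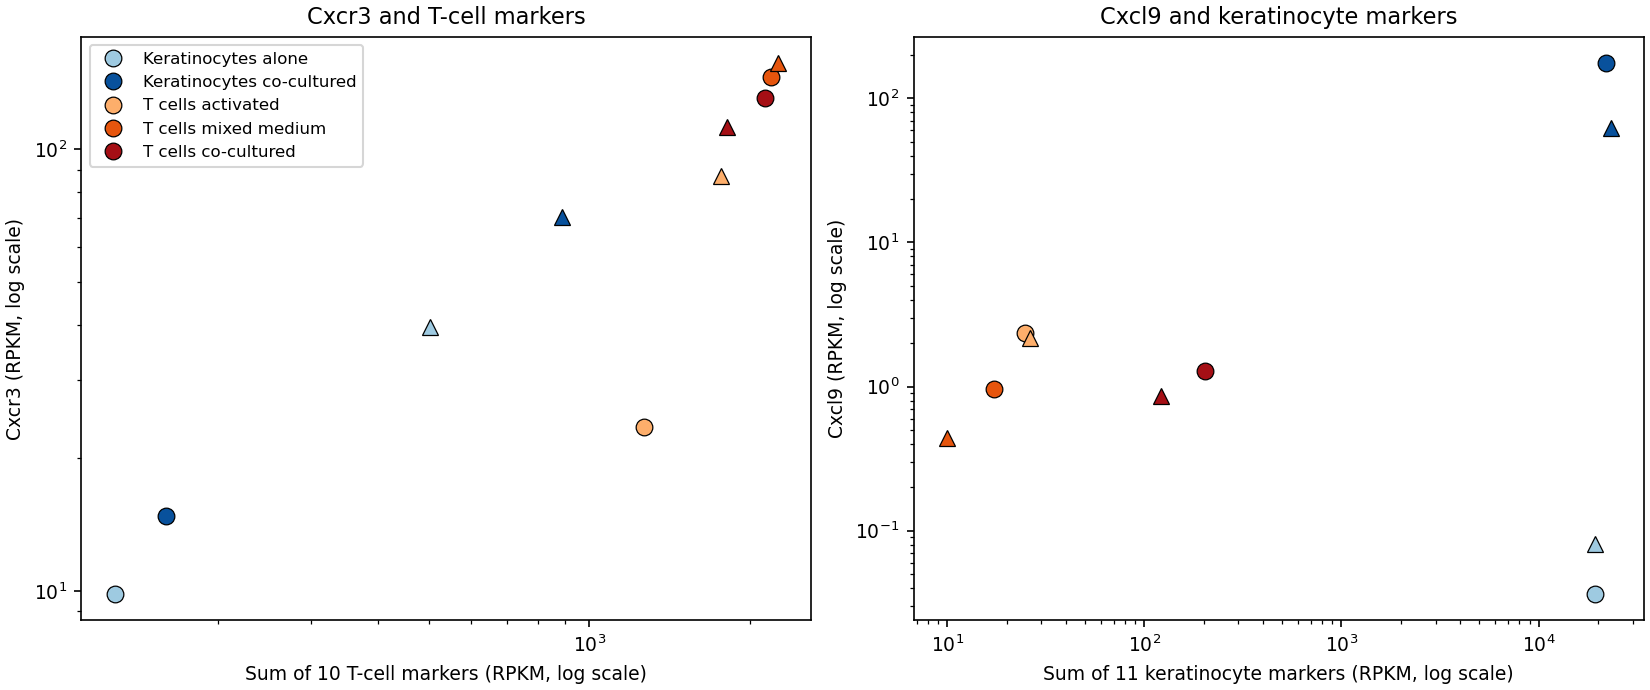
Left, Cxcr3 against the sum of 10 T-cell markers and right, Cxcl9 against the sum of 11 keratinocyte markers, both in RPKM on log axes, for 10 libraries (circles replicate 1, triangles replicate 2). Cxcr3 is high where T-cell markers are high, with the first library of activated T cells under the others at 23.5 RPKM, whereas Cxcl9 spans 0.0365 to 175 RPKM in keratinocyte libraries with similar marker sums.

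Markers of other cell types were low in keratinocyte libraries or overlapped between both groups. Markers of macrophages, monocytes and dendritic cells (11 of 12 genes found) summed to 50.2 and 72.1 RPKM in keratinocytes alone and to 40.0 and 69.3 RPKM upon co-culture. Siglech, Cd209a and Clec9a were at 0 in all 4 keratinocyte libraries, and so was Cd207, the marker of Langerhans cells. Other markers of the myeloid list were present, with Cd68 at 24.0 to 40.7 RPKM and Lyz2 at 6.69 to 37.6 RPKM in these libraries. The part of such cells in the Cxcl9 level was not tested. Over these libraries NK cell markers summed to 0.735 to 2.54, B cell markers to 0.531 to 3.85, fibroblast markers to 0.470 to 2.31, endothelial markers to 0.620 to 2.96 and melanocyte markers to 6.72 to 20.7 RPKM. In the T-cell libraries the sums were 15.8 to 68.0 RPKM for the myeloid list, 0.894 to 2.77 for NK cells, 16.6 to 92.5 for B cells (29.9 and 31.8 after activation, 44.7 and 92.5 in mixed medium, 16.6 and 27.3 in co-culture), 0.565 to 2.51 for fibroblasts, 3.31 to 22.3 for endothelial cells and 0.0909 to 5.72 for melanocytes. All 5 B cell markers had negative log2 fold changes in co-culture against mixed medium (median -2.15, 0 called, 3 at an unadjusted p under 0.05 with edgeR), as had Cxcl10, and their part in its level was not tested. CD8 markers (Cd8a and Cd8b1) summed to 251 to 1096 RPKM and CD4 markers (Cd4 and Cd40lg) to 18.9 to 115 RPKM there, against 0.224 to 3.16 and 12.5 to 95.5 RPKM in keratinocyte libraries.

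Other ligands of CXCR3 were nearly absent from the counts. Cxcl11 had 7 exon reads in co-cultured keratinocytes and 0 in keratinocytes alone, and Ccl21a was at 0 RPKM in each library. Pf4, the platelet factor that also binds this receptor, reached 3.05 RPKM at most, in T cells in mixed medium. Dpp4, a peptidase that trims CXCR3 ligands, was the gene besides the members that was called among the 6 genes for ligands and their processing, with a log2 fold change of 2.96 ± 0.38 in mixed medium over activated T cells (adjusted p = 0.0122). It rose from 5.42 and 3.41 RPKM to 36.6 and 25.6 RPKM and was also higher in co-cultured than in activated T cells (2.81 ± 0.38, adjusted p = 0.00755). In keratinocyte libraries Dpp4 stood at 0.525 to 1.82 RPKM. Its log2 fold change upon co-culture of keratinocytes was -0.15 ± 0.83 (adjusted p = 0.952).

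Among 20 genes for inducers of Cxcl9 and Cxcl10 and their signalling, Ifng had the largest called change. This gene for IFN-γ was at 613 and 589 RPKM in activated T cells, at 5.95 and 7.20 RPKM in mixed medium and at 3.26 and 6.20 RPKM upon co-culture. Its fall was called in mixed medium (log2 fold change -6.36 ± 0.49, adjusted p = 0.00345) and in co-culture (-6.77 ± 0.50, adjusted p = 0.00162), both against activated T cells. In keratinocyte libraries Ifng was measured at 1.26 and 2.63 RPKM without and 1.36 and 5.92 RPKM with T cells, and Ifnb1 at 0. Cxcl9 was highest in libraries with little Ifng transcript, and the group with the most Ifng transcript came next in the order of Cxcl9 levels. These are transcripts within each library, whereas IFN-γ is secreted and can act on other cells. In the paper's secretion assays, an antibody against IFN-γ lowered CXCL9 and CXCL10. Medium from activated T cells induced both chemokines there. T cells lacking the transcription factors NFATc1 and NFATc2 secreted no IFN-γ and induced neither chemokine in co-culture. The part of IFN-γ in the transcript levels was not tested here.

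Irf1, a transcription factor that binds interferon response elements, was the gene of this list whose change upon co-culture differed between the partners (3.73 ± 0.54 on the log2 scale, adjusted p = 0.0364). Keratinocytes alone held 3.19 and 5.72 RPKM of it and co-cultured keratinocytes 58.3 and 62.3 RPKM, while T cells held 58.0 and 52.3 RPKM in mixed medium and 70.5 and 44.5 RPKM upon co-culture. In mixed medium against activation, Irf8 fell (-2.14 ± 0.34, adjusted p = 0.0181) and Ifnar2, a chain of the receptor for type I interferons, rose (1.66 ± 0.32, adjusted p = 0.0270). In co-culture against activation the same 3 genes, Ifng, Irf8 and Ifnar2, were called in the same directions. No gene of the list was called between co-culture and mixed medium. The median log2 fold change of its 19 tested genes in keratinocytes was 0.41, next to 0.02 over all genes.

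No gene that regulates the transcription of Cxcr3 or signals below the receptor was called in any comparison. The first of these lists holds 9 genes, Cxcr3 itself and its regulators, with T-bet (Tbx21), Eomes and Klf2 among them. The second holds 23 genes for G proteins, phospholipase, kinases, Rac and Rap proteins, arrestins and integrin chains. Their medians in keratinocytes were 0.63 in both lists, next to 0.02 over all genes and 0.76 over the 10 T-cell markers, all positive. In mixed medium over activated T cells they were 0.38 and 0.43, next to -0.01 over all genes and 0.51 over the T-cell markers. The part of T-cell RNA in the medians of both lists of genes was not tested. At an unadjusted p under 0.05 edgeR gave 1 and 0 of these genes in keratinocytes, against 901 of all 12515 genes, and 3 and 7 in mixed medium over activation, against 2969 of all 11863 genes. Tbx21, Eomes and Klf2 are named here after their values had been seen. From activated T cells to mixed medium, Tbx21 went from 44.3 and 19.5 to 13.1 RPKM in both libraries. Eomes went from 11.7 and 6.72 to 3.30 and 0.795 RPKM, and Klf2 from 10.4 and 61.0 to 96.8 and 81.4 RPKM. Of the 9 genes, Cxcr3 included, 5 had a positive log2 fold change there. The part of these regulators in the level of Cxcr3 was not tested.

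Of 13 other genes for CXC, XC and CX3C chemokines, 10 were tested in keratinocytes, with a median log2 fold change of 0.92, and edgeR called 0 (3 at an unadjusted p under 0.05). In T cells Xcl1, a chemokine that attracts dendritic cells, fell in mixed medium (-3.64 ± 0.47, adjusted p = 0.0123) and was also lower upon co-culture than after activation (-3.39 ± 0.47, adjusted p = 0.00766). The medians of other CXC and atypical receptors were 0.61 in keratinocytes, next to 0.76 for T-cell markers, and 0.22 in mixed medium over activation. Of 11 such genes, 7 were tested in keratinocytes and 5 in T cells. Of these, edgeR called 0, with 1 and 0 at an unadjusted p under 0.05, where over all genes 901 of 12515 and 2969 of 11863 passed. In the difference between both co-culture effects 0 genes of these lists were called, against Cxcl9 among the CXCR3 ligands.

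Genes next to the members were examined because neighbouring genes can move together. Within 250 kb of Cxcl9 and Cxcl10, G3bp2, Uso1, Naaa, Sdad1, Art3, Nup54 and Scarb2 passed the filter in keratinocytes, with log2 fold changes between -0.54 (Uso1) and 0.76 (G3bp2). Gm43040, U90926, Ppef2, Cxcl11 and Fam47e were at or under 0.167 RPKM in all libraries. None of them approached the differences of Cxcl9 and Cxcl10 in these libraries. Next to Cxcr3, Taf1 and Ogt had log2 fold changes of -0.91 and 0.21 in keratinocytes, and Gm4779, 8030474K03Rik and Nhsl2 were at or under 0.0650 RPKM.

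For each member the 5 genes with the most similar profile over the 10 libraries were sought among 9302 genes with at least 5 RPKM in at least 1 library. As a measure of likeness the root mean square difference between centred log2(RPKM + 0.1) values was used, which is a description across libraries that share their depth and cell content. For Cxcl9 these were Oasl2 (1.08), Ubd (1.31), Serping1 (1.51), AA467197 (1.63) and Sectm1b (1.71), against a median of 3.25 over all genes. Oasl2 belongs to the oligoadenylate synthetase-like genes of the interferon response, Ubd codes for the ubiquitin-like protein FAT10, and Serping1 for the C1 inhibitor of complement. Oasl2, as an example, had 0.0327 and 0.0729 RPKM without T cells and 24.5 and 6.92 RPKM upon co-culture of keratinocytes, with the same order of both co-cultured libraries as Cxcl9.

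The genes nearest to Cxcl10 were Isg15 (0.647), Psme2 (0.649), Cd274 (0.658), Ube2l6 (0.717) and Casp4 (0.763), against a median of 1.44. Isg15 and Ube2l6 act in the attachment of the ubiquitin-like protein ISG15, Psme2 codes for a subunit of the proteasome activator, and Cd274 for the ligand of PD-1. For Cd274, keratinocytes without T cells had 0.611 and 1.26 RPKM, co-cultured keratinocytes 5.50 and 4.84 RPKM and T cells 4.08 to 5.78 RPKM. Like Cxcl10, it was thus lowest in keratinocytes alone, but it was nearly level over the other groups, among which Cxcl10 ranged from 2.98 to 12.7 RPKM. The difference between Cxcl9 and Cxcl10 was 2.29 by the same measure, above the median of 1.44. Since values were centred but not scaled, the measure also counts the size of changes, which was larger for Cxcl9. Both transcripts were lowest in keratinocytes alone and highest in co-cultured keratinocytes.

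The profile of Cxcr3 was matched much more closely, by Ltb (0.148), Itgb7 (0.155), Tspan32 (0.168), Crip1 (0.193) and Il7r (0.210), against a median of 1.61. Ltb codes for lymphotoxin β, Itgb7 for an integrin chain of lymphocytes and Il7r for the receptor of IL-7. Ltb had 23.7 and 86.8 RPKM in keratinocytes cultured alone, 33.8 and 156 RPKM upon co-culture, 70.4 and 228 RPKM in activated T cells, 336 and 414 RPKM in mixed medium and 270 and 267 RPKM in co-cultured T cells. It was low in the same 3 libraries as Cxcr3, namely the first of keratinocytes alone, of co-cultured keratinocytes and of activated T cells. From Cxcl10 and Cxcl9 the profile of Cxcr3 differed by 1.53 and 3.59.

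**Figure D5:**
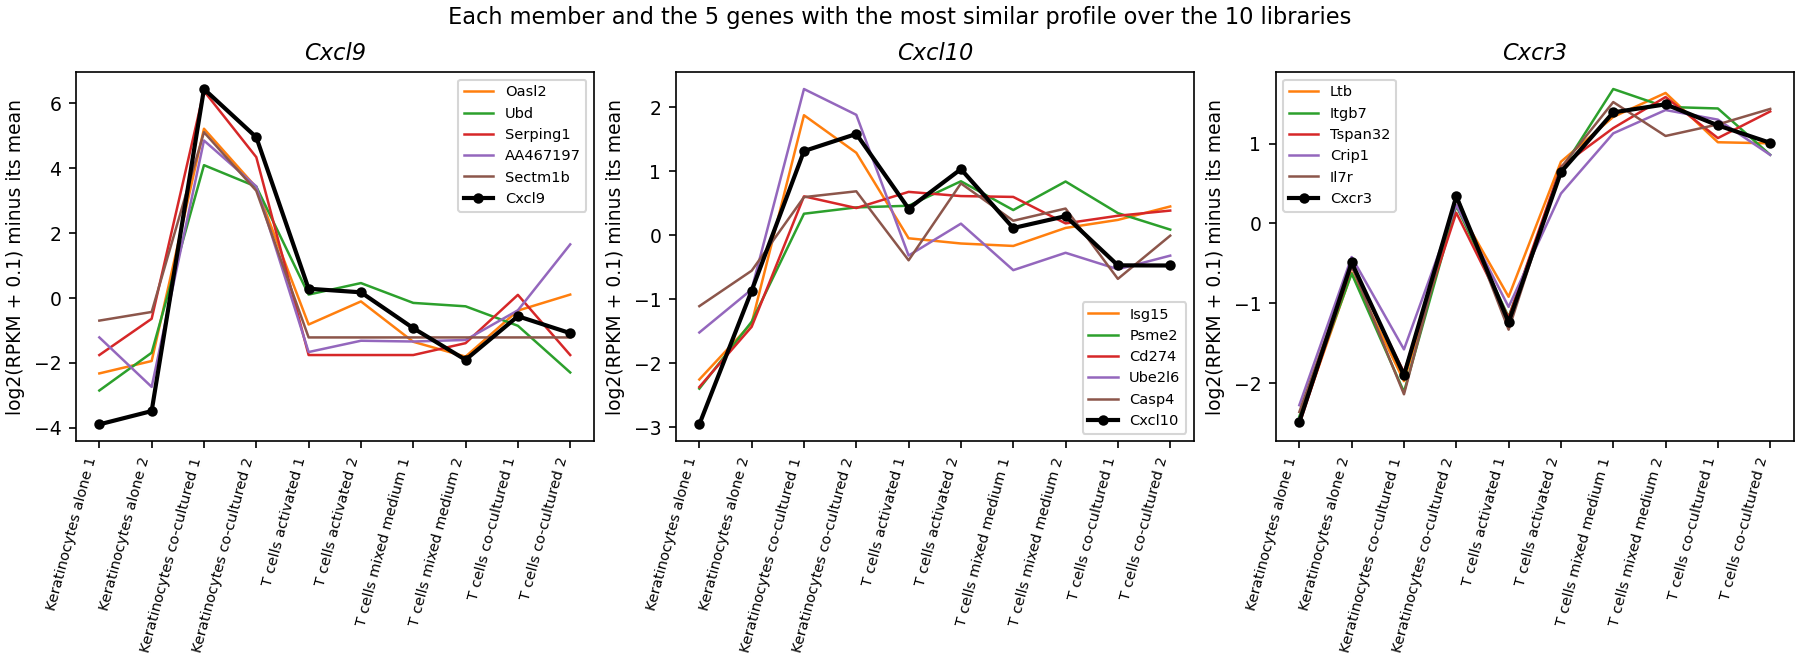
Centred log2(RPKM + 0.1) of Cxcl9, Cxcl10 and Cxcr3 (black, with points) and of the 5 genes with the most similar profile (coloured lines) over the 10 libraries. The lines lie closest around Cxcr3 (0.148 to 0.210 root mean square difference), which goes up and down between the first and second libraries of 3 groups, and widest around Cxcl9 (1.08 to 1.71).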

How the data were processed

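RNA of 10 libraries was sequenced by the authors as single-end reads on a HiSeq2500, after preparation with the NEBnext Ultra II kit, and mapped to GRCm38 with the CLC Genomics Workbench (default RNA-Seq settings). Deposited were, gene by gene and in a table per library, the raw counts of total, unique, exon-exon and intron reads. The authors also deposited RPKM values, which are scaled to exon length and mapped reads and written with a decimal comma. The annotation release and the counting options are not given in the sources used here.

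Groups were taken from the labels. The members and all gene lists were chosen with earlier results of these data known. Total exon read counts were tested in R 4.3.3 by edgeR 4.0.16, using filterByExpr, TMM factors, glmQLFit and glmQLFTest. Benjamini-Hochberg adjustment covered all genes that passed the filter. The SE is the size of the log2 fold change divided by the square root of F. Keratinocytes (4 libraries), T cells (6), their interaction (8) and all groups (10) were fitted apart. Replicates differed far beyond sampling noise (chi-square per degree of freedom 94.2 to 209) and were kept as separate libraries. Levels and exact 95% binomial intervals were computed in Python 3.11.15 with scipy 1.17.1, pandas 2.3.3 and numpy 2.4.6, and plots were drawn with matplotlib 3.10.9.

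Besides the members, named genes are members of fixed lists that were called or define a cell type, genes within 250 kb of a member, and the 5 genes with the most similar profile. Tbx21, Eomes, Klf2, Pf4, Ccl21a and Ifnb1 are further list genes, named after their values had been seen to describe their lists. As alternatives served limma 3.58.1 with 1 or 0.1 added to RPKM before taking log2, DESeq2 1.42.0, RLE size factors, no filter, unique exon reads, all 10 libraries, a replicate block and each library left out. The fits were tested on simulated data. Secretion assays and enrichment of ontology terms were not analysed here.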

Additional observations from a re-analysis of the deposited data

Results flagged for a closer look

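The effect of co-culture on Cxcl9 differed between keratinocytes and T cells by 10.28 on the log2 scale (adjusted p = 0.00730, edgeR). It had 2 and 4 exon reads in keratinocytes alone, 7687 and 2977 in co-cultured keratinocytes, 43 and 22 in T cells in mixed medium and 56 and 35 in co-cultured T cells.

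The Cxcl10 level was higher in each library of co-cultured keratinocytes than in keratinocytes alone, as were 19.8% of 12515 genes. It was lower in each library of co-cultured T cells than in mixed medium, as were 13.1% of 11863 genes. The difference between both effects was 3.81 ± 1.03 on the log2 scale and was not called (adjusted p = 0.307, edgeR).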

How the results depend on the processing

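Of 204 recomputed values of the members, 200 kept their direction and 186 also their side of the threshold, while 14 passed it newly and 0 lost a call. The count of called genes in keratinocytes, 0, was 177 with DESeq2, 11 without the filter, 4 with all 10 libraries and 2 with the block. Log2 fold changes of Cxcl9 that became called there were 11.02 (DESeq2), 10.97 (no filter), 10.93 (all 10 libraries) and 10.89 (block, adjusted p = 0.0361), and that of Cxcl10 3.19 (DESeq2). On limma's scales Cxcl9 was 6.64 (RPKM + 1) and 9.38 (RPKM + 0.1), with adjusted p = 0.262 and 0.298. With the block Cxcr3 was 0.78 ± 0.26 (adjusted p = 0.186). With a library left out, keratinocyte values ranged from 10.14 to 11.62 for Cxcl9, 2.41 to 4.78 for Cxcl10, -0.76 to 2.27 for Cxcr3 and 0 to 1164 for called genes. Same-numbered keratinocyte libraries deviated together (r = 0.558 across genes), but the numbers alone do not show pairing. No paired analysis was possible for T cells and the interaction because their numbers follow the accession order.

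For mixed medium against activation, Cxcr3 was called at 1.60 (DESeq2) and 1.59 (no filter), and Cxcl10 turned to 0.46 on unique exon reads (-0.45 for activation over mixed medium in the fit of 5 groups). The 776 called genes became 1843 (DESeq2) or 1945 (no filter). With a library left out, Cxcr3 ranged from 0.92 to 2.89 and called genes from 24 to 594. For co-culture against mixed medium, 31 called genes became 88 (DESeq2), 99 and 107 (limma with 1 and 0.1 added), 141 (no filter) and 83 (all 10 libraries), and 16 to 52 with a library left out. For co-culture against activation, Cxcr3 was called at 1.31 (no filter), and 1222 called genes became 2232 (DESeq2) or 2425 (no filter). With a library left out, Cxcr3 ranged from 0.63 to 2.60 and called genes from 266 to 1069. In the interaction, Cxcl10 was called at 3.74 (DESeq2), 76 called genes became 352 (DESeq2) or 205 (no filter), and with a library left out Cxcr3 ranged from -0.52 to 2.56 and called genes from 21 to 105. The cause was not tested. Where an arm kept 1 library, it was assumed to vary like the others. Depth limits Cxcl9 in keratinocytes alone, with 6 reads in both libraries, and the unique reads of Cxcl10.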
